A study of Mus musculus with 24 samples.

Results

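The 12 lymphomas of this series were split by how far the transcript of Mki67, a gene expressed by cycling cells, lay below its untreated level after Adriamycin (ADR), the DNA-damaging chemotherapy drug also called doxorubicin. For each lymphoma the Mki67 value of the untreated array was subtracted from that of the ADR array, and the groups were chosen by that difference. The 6 lymphomas with the largest drop are called deep and the 6 with the smallest drop shallow, so each group held 12 of the 24 arrays. Mki67 had 1 single-gene probe set. It was the gene of the rule and is not a result.

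Every sample, treated or not, was a culture of primary B-cell lymphoma cells from lymph nodes of Eµ-Myc transgenic mice, in which Myc is expressed in the B lineage, and carried retroviral Bcl2, which blocks apoptosis, after puromycin selection. Each lymphoma gave 1 untreated array and 1 array after 5 days with 0.05 µg/ml ADR, and both cultures grew on gamma-irradiated NIH 3T3 mouse fibroblasts as feeder cells. The series' design text describes the treated cells as senescent, that is, permanently withdrawn from division. The labels gave no age, sex or strain of the mice, and each lymphoma stood for 1 culture pair, so differences between lymphomas include differences between cultures.

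Dividing cells express their cell-cycle genes in waves. E2F factors drive genes of DNA replication at the start of S phase, and the MuvB complex, joined by B-MYB and FOXM1, drives genes of mitosis in G2. In arrested cells p53 and its target p21 (Cdkn1a) keep the RB proteins active, and the DREAM complex, built from MuvB, E2F4 and an RB-like protein, silences both waves. Mitotic genes often carry a short promoter element, the cell-cycle genes homology region (CHR), through which MuvB binds, together with CCAAT boxes.

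The Mki67 differences of the deep lymphomas were -4.28 in lymphoma 2949, -3.20 in 3769, -3.08 in 5766, -2.71 in 2581, -2.48 in 6054 and -2.24 in 1570, all in log2 units as ADR minus untreated. Those of the shallow lymphomas were -2.21 in lymphoma 403, -1.94 in 7050, -1.84 in 5560, -1.67 in 1467, -1.54 in 3594 and -0.98 in 3802. The values formed a continuous series with no gap at the boundary, where lymphomas 1570 and 403 differed by 0.025. Lymphoma 5560 does not match the name of its group: its ADR level of 7.77 was the second lowest of the 12, and its difference was small because its untreated level, 9.61, was the lowest. Ranking by the ADR array alone moved 5560 into the low group and 1570 into the high one and left the other 10 lymphomas in place.

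**Figure D1:**
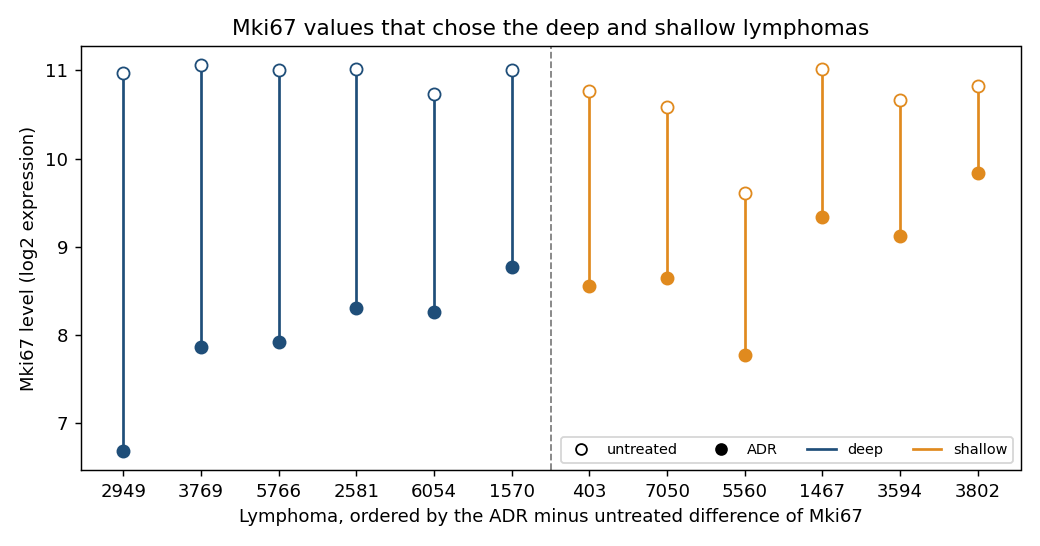
Mki67 level in log2 expression on the untreated (open) and ADR (filled) array of each lymphoma, ordered by the difference between them, with the 6 deep lymphomas left of the dashed line and the 6 shallow ones right of it. The difference runs from -4.28 in lymphoma 2949 to -0.98 in 3802 without a break at the line, and lymphoma 5560 starts lowest, at 9.61.

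The arrays carried B-cell transcripts in both treatments. Cd79a and Cd79b, the signalling chains of the B-cell receptor, lay at medians of 10.7 and 11.2 untreated and 9.46 and 10.8 after ADR, while Pax5, a B-cell identity factor, lay near the floor of the scale, between 4.68 and 5.46 untreated. Array medians lay between 4.38 and 4.47, and differences of genes that reach such values are understated. The treated arrays were named with either the word DOX or the word sen, which stood at 4 DOX and 2 sen arrays in the deep group and 3 of each in the shallow group (Fisher's exact test, two-sided, p = 1). All comparisons of ADR minus untreated differences come from the contrast that chose the groups, so they are described and not tested.

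Among genes whose groups did not overlap, those of mitosis and DNA replication stood furthest apart, and over the lists of such genes the gap lay in the ADR arrays. Of 18193 genes, 47 had a difference that was lower in all 6 deep lymphomas than in all 6 shallow ones, Mki67 included, which is 0.258% of the genes, and 37 were higher in all deep lymphomas, which is 0.203%. Without Mki67, 34 of the 46 lower genes belonged to 8 lists of cell-cycle, replication and recombination genes with 209 measured members, and 0 of the 37 higher genes did. The deep group mean was at least 2-fold lower for 197 genes, 1.08% of all, of which 69 were on the 8 lists, and at least 2-fold higher for 44 genes, 0.242%, none on those lists. The 8 lists hold 209 of the 18193 genes, so a count of 0 among 37 or 44 higher genes is near their share. The lower genes that were both 2-fold apart and free of overlap numbered 33, while 0 of the higher genes were both. Single lymphomas moved the total of 241 genes 2 or more fold apart by over 1.5 times: it was 157 without 2949, 156 without 5560, 372 without 3769 and 487 without 1467. The 84 genes without overlap became 134 without 3769, 141 without 7050, 147 without 1570, 163 without 2581, 176 without 6054 and 207 without 1467, and smaller groups overlap less by construction.

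Each lymphoma's mean over the 209 genes showed the same ordering of the groups. The mean ADR minus untreated difference ran from -2.04 through a median of -1.66 to -1.16 in the deep lymphomas and from -1.06 through -1.01 to -0.57 in the shallow ones. The groups did not overlap, with deep lymphoma 6054 and shallow lymphomas 7050 and 403 nearest to each other. On the ADR arrays the mean level ran from 6.43 to 7.35 in the deep group and from 7.10 to 8.08 in the shallow group, so these overlapped, since shallow lymphoma 5560 lay at 7.10 and deep lymphoma 6054 at 7.35. On the untreated arrays it ran from 8.46 to 8.88 and from 7.88 to 8.72.

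Over the 209 genes the median deep minus shallow gap was -0.71 for the differences, -0.59 for the ADR levels and 0.14 for the untreated levels, and 196, 188 and 44 of the genes were lower in the deep group. The small untreated gap rested on lymphoma 5560, since without it the median was 0.02, with 103 genes lower and 106 higher. Without lymphoma 2949, which had the largest drop, the median gap of the differences was -0.66 and 195 genes were lower.

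**Figure D2:**
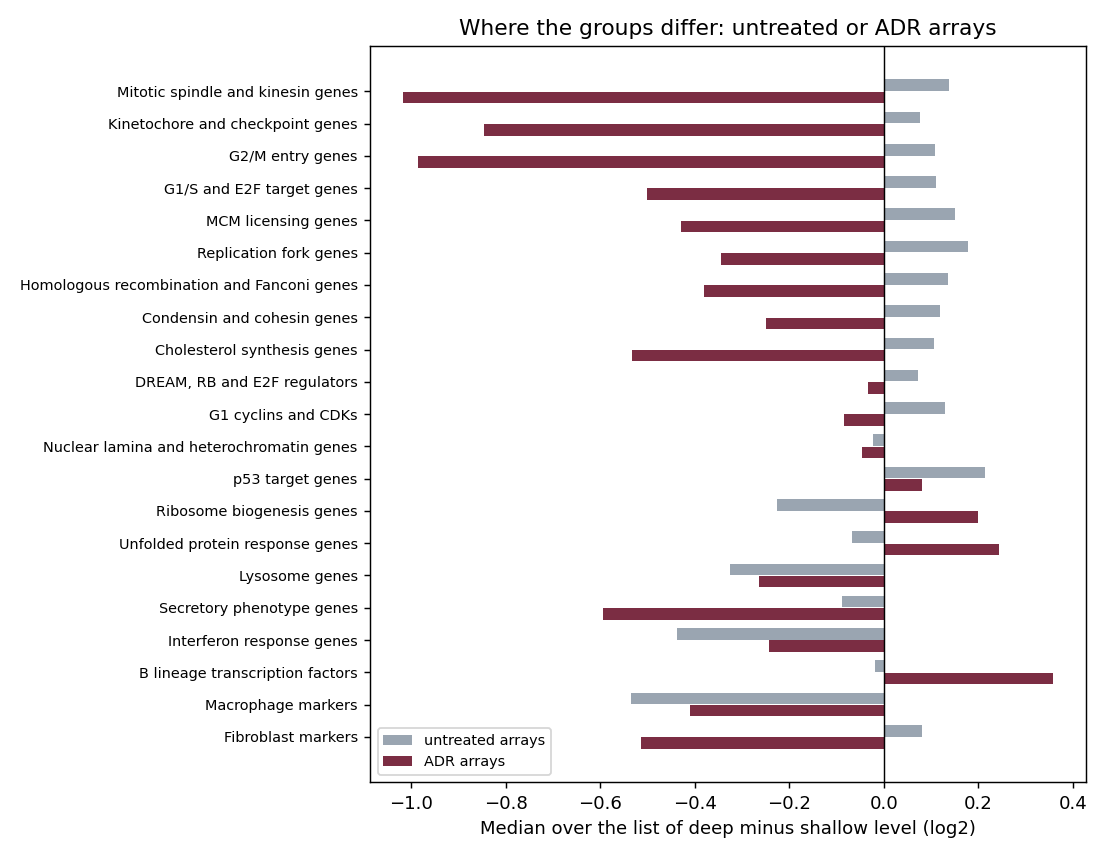
Median over each gene list of the deep minus shallow level in log2 units, on the untreated arrays (grey) and on the ADR arrays (dark red). For the spindle list the bars stand at 0.14 and -1.02, and for ribosome biogenesis genes at -0.23 and 0.20.

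The spindle motors and spindle poles held the largest gap. The mitotic spindle and kinesin list had a median gap of -1.19 against 0.03 over all genes, and 27 of its 28 measured genes were lower in the deep group, 17 of them by 2-fold or more and 9 without overlap. The promoters of 3 of these genes and of Ttk, a kinetochore kinase, are shown because these genes were among those with the largest gaps and their promoters hold both elements. They are RefSeq sequences of GRCm38.p6, all on the plus strand, from 250 bases before to 50 after the annotated start. Capitals mark matches on either strand to the CHR (TTTGAA or TTCGAA) and to the CCAAT box (CCAAT), and no match to the E2F letters searched (TTTCCCGC or TTTGGCGC) lay in these windows.
Kif11, chr19:37376132-37376431: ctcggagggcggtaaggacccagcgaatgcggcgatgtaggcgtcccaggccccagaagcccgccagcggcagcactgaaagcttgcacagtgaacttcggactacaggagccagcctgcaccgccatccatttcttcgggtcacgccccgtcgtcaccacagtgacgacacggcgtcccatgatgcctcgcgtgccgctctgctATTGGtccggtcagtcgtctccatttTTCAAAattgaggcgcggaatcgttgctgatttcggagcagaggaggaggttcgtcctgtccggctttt
Aspm, chr1:139454523-139454822: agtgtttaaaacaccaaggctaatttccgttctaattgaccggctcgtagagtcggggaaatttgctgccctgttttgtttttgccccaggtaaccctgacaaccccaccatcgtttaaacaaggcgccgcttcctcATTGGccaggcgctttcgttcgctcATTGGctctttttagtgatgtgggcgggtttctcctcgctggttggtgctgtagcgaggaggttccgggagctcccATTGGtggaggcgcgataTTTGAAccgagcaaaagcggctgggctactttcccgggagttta
Spag5, chr11:78301341-78301640: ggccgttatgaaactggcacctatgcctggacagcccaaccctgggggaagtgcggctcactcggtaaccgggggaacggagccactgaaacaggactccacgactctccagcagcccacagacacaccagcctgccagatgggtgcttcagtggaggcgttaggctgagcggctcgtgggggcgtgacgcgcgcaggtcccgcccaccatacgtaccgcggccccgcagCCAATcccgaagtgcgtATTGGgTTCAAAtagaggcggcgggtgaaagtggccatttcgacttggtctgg
Ttk, chr9:83834439-83834738: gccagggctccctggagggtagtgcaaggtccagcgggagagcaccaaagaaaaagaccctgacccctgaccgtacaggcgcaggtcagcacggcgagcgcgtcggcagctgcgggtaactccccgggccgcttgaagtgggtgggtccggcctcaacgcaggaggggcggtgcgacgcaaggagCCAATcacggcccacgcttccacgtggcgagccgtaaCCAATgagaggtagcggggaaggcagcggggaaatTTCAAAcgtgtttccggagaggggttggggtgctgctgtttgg

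A CHR match was found in 24 of 41 promoters (58.5%) of 40 matched genes that were lower in the deep group without overlap, and in 15.1% of the promoters of all measured genes. A CHR and a CCAAT match stood together in 48.8% and 5.97%, respectively. By list the share with a CHR was 82.1% for spindle genes, 68.8% for G2/M entry genes, 53.3% for condensin and cohesin genes and 51.4% for kinetochore genes. It was 21.7% for MCM licensing genes, 16.1% for replication fork genes, 11.5% for G1/S genes and 11.1% for recombination genes. The E2F letters stood in 39.1% of MCM licensing, 25.8% of replication fork, 23.1% of G1/S and 14.8% of recombination promoters, in 40% of condensin and cohesin promoters and in 2.34% of the promoters of measured genes. Of the promoters of the 30 matched genes that were higher in the deep group without overlap, 8.11% held a CHR. The letters are short, matches of different elements may share bases, and a match is not evidence of binding. The genes without overlap come from the contrast that chose the groups, and the spindle and G2/M entry lists held larger CHR shares than the lower genes. The shares therefore describe which genes were selected and are no readout of depth.

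Kif11, the motor that pushes spindle poles apart, had the largest gap among genes without overlap. Its untreated level was 8.55, 8.95 and 9.41 (lowest, median and highest) in the deep lymphomas and 8.17, 8.96 and 9.16 in the shallow ones. Its ADR level was 3.49, 5.49 and 5.95 in the deep lymphomas and 6.31, 7.12 and 7.86 in the shallow ones. The groups overlapped untreated and were separate after ADR. The mean difference was -3.66 ± 0.83 against -1.81 ± 0.37 (SD, n = 6 each), a gap of 3.60-fold, and all 3 probe sets of the gene had the same sign.

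Aspm, a spindle pole protein that orients the spindle, had differences from -4.90 to -2.53 in the deep lymphomas and from -2.02 to -0.85 in the shallow ones. Its ADR levels ended at 5.63 in the deep group and began at 5.69 in the shallow group, so the separation on that arm was narrow. Kif20a, a kinesin of cytokinesis, averaged -3.00 and -1.37, Spag5, a spindle and kinetochore adaptor, -3.19 and -1.60, Cenpe, the kinetochore motor, -2.65 and -1.07, and Kif2c, a microtubule depolymerase, -2.41 and -0.85. Lymphoma 2949 was the lowest deep lymphoma for each of them. Anln, a cytokinesis scaffold, overlapped between the groups, with shallow values from -2.13 up to 2.001.

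The kinetochore and checkpoint list had a median gap of -1.04, with 37 of 37 genes lower in the deep group and 10 without overlap. Zwilch, a part of the RZZ complex that holds the spindle checkpoint at kinetochores, lay at 8.55 to 8.92 untreated in the deep lymphomas and 7.33 to 8.99 in the shallow ones. After ADR it lay at 5.32 to 7.15 and at 7.21 to 8.12. Its mean difference of -2.32 ± 0.54 in the deep group was 4.99-fold below untreated and that of -0.65 ± 0.39 in the shallow group 1.57-fold. Ttk, the checkpoint kinase also known as MPS1, averaged -2.95 and -1.39, Cenpf -3.04 and -1.53, and Birc5, the survivin subunit of the chromosomal passenger complex, -2.89 and -1.40.

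G2/M entry genes had a median gap of -0.97, with 23 of 23 genes lower in the deep group and 5 without overlap. Top2a, the DNA topoisomerase that ADR poisons, lay between 11.07 and 11.78 untreated in the deep lymphomas and between 10.56 and 11.50 in the shallow ones. After ADR it lay between 7.27 and 9.24 in the deep group and between 9.47 and 10.45 in the shallow group. Of its 3 probe sets 2 gave a lower difference in the deep group. Plk1 and Cdk1 here, and Birc5 and Ube2c elsewhere, were chosen after their values were seen. Cdk1, the mitotic kinase, averaged -2.27 and -1.07, Plk1 -2.57 and -1.64, Pbk -2.98 and -1.46, and Tpx2, an Aurora A activator, -2.43 and -1.11, with Pbk and Tpx2 overlapping. Ncapg of the condensin complex averaged -2.92 and -1.31, but the condensin and cohesin list as a whole had a median gap of only -0.28, with 2 of 20 genes free of overlap.

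**Figure D3:**
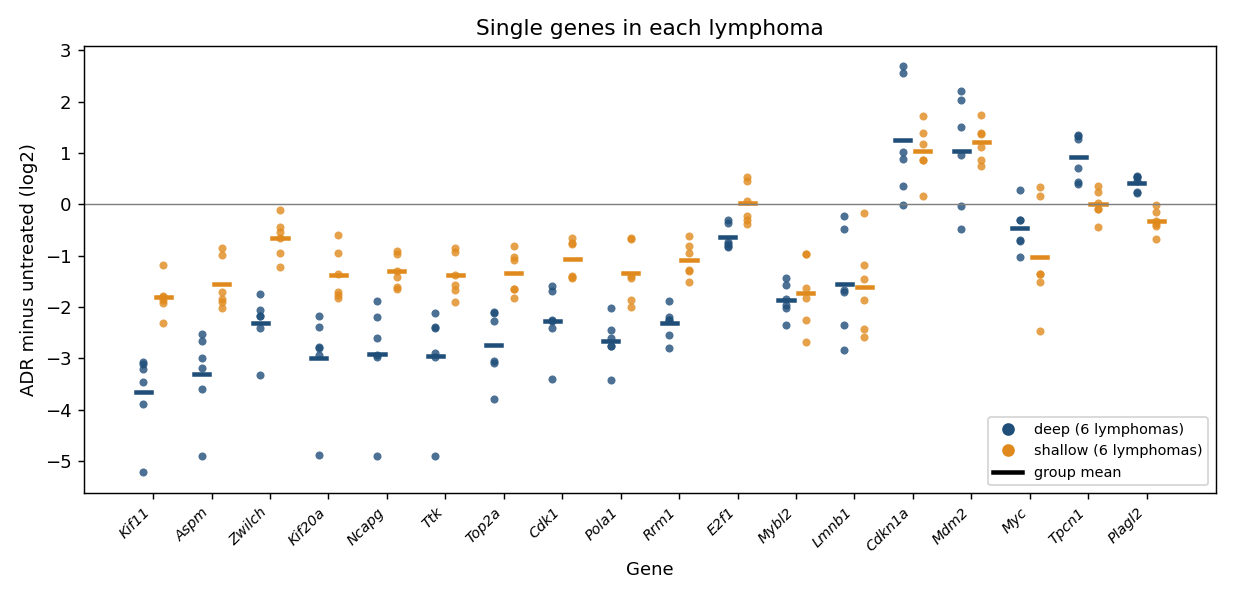
ADR minus untreated difference in log2 units of 18 genes in each lymphoma, deep in blue and shallow in orange, with bars at the group means. The mitotic and replication genes from Kif11 to Rrm1 separate the groups, Cdkn1a, Mdm2 and Lmnb1 overlap, and Plagl2 lies above 0 in all deep lymphomas and below 0 in all shallow ones.

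Replication genes differed by less than mitotic genes. Median gaps were -0.64 for 26 G1/S and E2F target genes, -0.64 for 20 MCM licensing genes, -0.56 for 33 replication fork genes and -0.48 for 28 homologous recombination and Fanconi genes, and 2, 1, 3 and 3 of them were lower without overlap. Orc1 is counted in the first 2 of these lists. Pola1, the catalytic subunit of the polymerase that primes DNA synthesis, had differences from -3.43 through a median of -2.68 to -2.02 in the deep lymphomas and from -2.002 through -1.41 to -0.65 in the shallow ones. The separation was narrow, between deep lymphoma 6054 and shallow lymphoma 5560. Prim1, its primase partner, averaged -2.33 and -1.04, Rrm1, the large subunit of ribonucleotide reductase, -2.32 and -1.08, Orc1, an origin recognition subunit, -1.70 and -0.64, and Fancd2, the crosslink repair protein, -2.54 and -1.31. Cdc7, the kinase that fires origins, overlapped at -2.05 and -0.97. Outside the lists, Tcf19, a gene expressed at the G1/S transition, had differences from -3.22 through a median of -2.29 to -1.83 in the deep lymphomas and from -1.41 through -0.88 to 0.24 in the shallow ones, without overlap.

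The regulators above these genes showed no common shift as a list. The list of DREAM, RB and E2F regulators had a median gap of -0.08 against 0.03 over all genes, with 10 of 19 genes lower in the deep group. Of them 0 were free of overlap, which is near the share over all genes, 0.258% lower and 0.203% higher. E2f1, an activator of replication genes, averaged -0.64 ± 0.24 in the deep group and 0.02 ± 0.39 in the shallow group and overlapped. Rbl1, the p107 pocket protein, averaged -1.76 and -0.89. Mybl2, the gene of B-MYB, averaged -1.87 and -1.72 and Foxm1 -0.82 and -0.57. Rb1 averaged 0.08 and 0.16 and Rbl2 0.17 and 0.14, with lymphomas on both sides of 0 in each group. The probe sets of these 6 regulators did not all give the same sign of gap, in each of the 6. Single members of the list did stand apart in their means, with 1 gene at least 2-fold lower in the deep group and 1 at least 2-fold higher. The lower one was E2f7, at -2.16 and -0.99, and the higher one Myb, at -0.71 and -2.70, both overlapping. E2f8 had a gap between -1.21 and -0.69 with 1 lymphoma left out.

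Cdkn1a, the gene of p21, overlapped between the groups. Its ADR level was 11.27, 11.79 and 12.11 in the deep lymphomas and 10.88, 11.39 and 11.96 in the shallow ones, and its difference averaged 1.25 ± 1.13 and 1.03 ± 0.54. Lymphoma 2949, with the largest Mki67 drop, had the highest untreated Cdkn1a level, 12.12, and a difference of -0.01. Mdm2, the p53 target that degrades p53, averaged 1.03 and 1.21, and lymphoma 2949 again had the highest untreated level, 10.56, and the lowest difference, -0.48. Over 38 p53 target genes 0 were free of overlap, near the share over all genes, and the median gap was -0.06. The median gap turned to 0.47 among the 5 lymphomas with sen arrays and was -0.41 among the 7 with DOX arrays. Single members stood apart in their means, with 2 genes at least 2-fold lower in the deep group, against 1.08% of all genes, and 0 at least 2-fold higher. The 2 were Plk2, at 0.66 and 2.09, and Gadd45a, at 0.066 and 1.45, both overlapping. Ddb2 overlapped too, with a gap between -1.19 and -0.52 with 1 lymphoma left out.

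Among other regulators of the arrest the groups overlapped as well. Lmnb1, the lamin lost in senescent cells, averaged -1.55 ± 1.02 in the deep group and -1.61 ± 0.89 in the shallow group, and its smallest differences, -0.24 and -0.17, were those of lymphomas 2949 and 3802, the ends of the Mki67 ranking. Cdkn1b averaged -0.14 and -0.21. Cdkn2a, which encodes p16 and p19ARF, stayed near the floor in all but lymphomas 403 and 3594, where it lay at 6.82 and 5.70 untreated. The one gene of the CDK inhibitor list without overlap was Cdkn3, at -2.70 and -1.18, a phosphatase whose transcript peaks in dividing cells. Glb1, the gene of the lysosomal galactosidase stained in senescent cells, averaged 0.62 and 0.30, Ccnd1 0.65 and 0.79, and Abcb1b, a drug efflux pump, 0.48 and 0.85, all overlapping. Cdkn2c averaged -1.02 and -0.12, Ccnd2 0.81 and 1.68, Ccnd3 -0.22 and -0.36, Abcb1a 0.35 and 0.61, and Bcl2 -0.95 and -0.78, again with overlap.

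**Figure D4:**
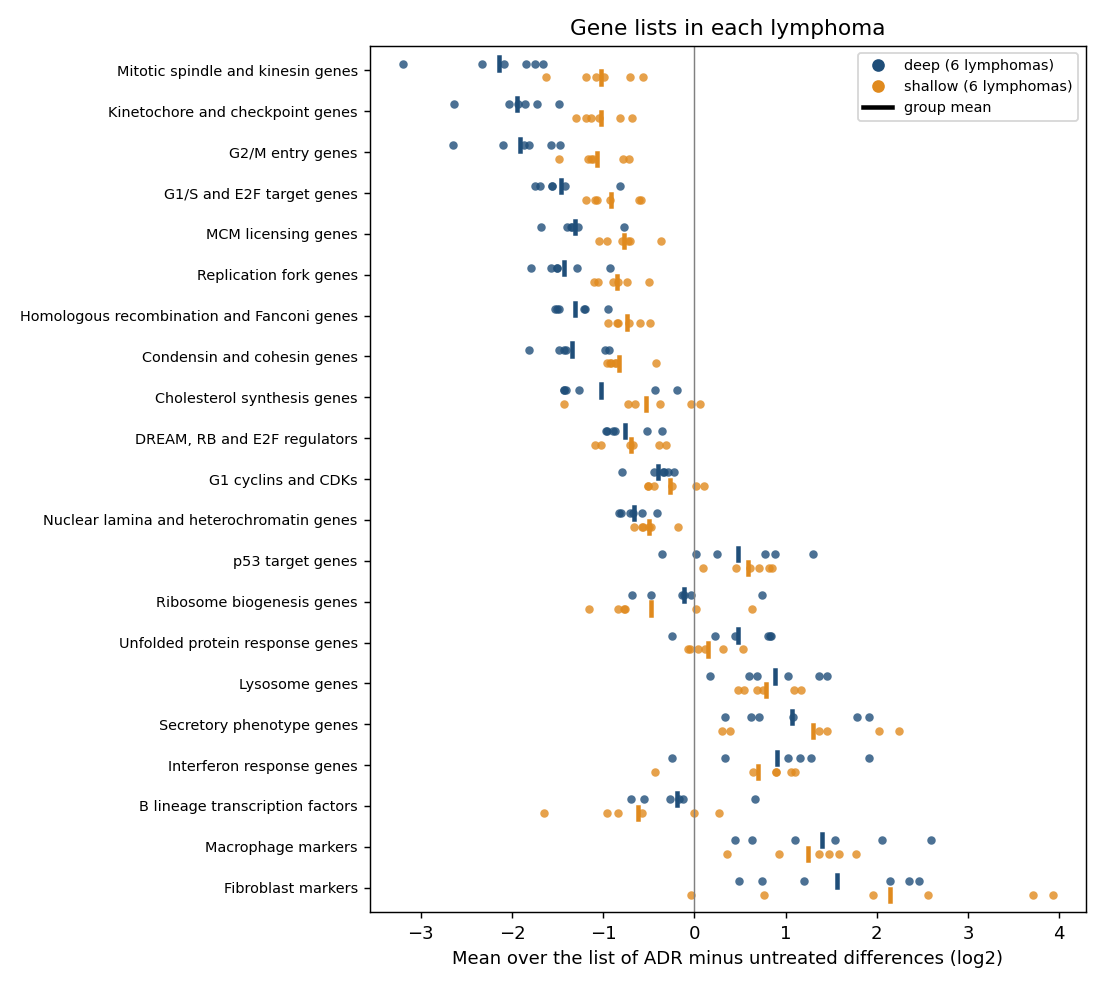
Mean over each gene list of the ADR minus untreated differences in log2 units, 1 point per lymphoma, deep in blue and shallow in orange, with bars at the group means. The spindle and kinetochore lists do not overlap between the groups, while p53 targets, lysosome genes and the fibroblast and macrophage markers do. The separation of the spindle list is narrow, between deep lymphoma 6054 at -1.66 and shallow lymphoma 1467 at -1.63.

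Among genes without overlap, none was as far apart in the other direction as Kif11. Tpcn1, a calcium channel of endosomes and lysosomes, had differences from 0.39 through a median of 0.99 to 1.34 in the deep lymphomas and from -0.45 through -0.03 to 0.37 in the shallow ones, a gap of 1.89-fold. Its ADR levels overlapped, from 7.32 to 9.35 and from 7.30 to 8.82. Plagl2, a zinc finger transcription factor, lay above 0 in all 6 deep lymphomas (0.21 to 0.55) and below 0 in all 6 shallow ones (-0.68 to -0.02). Yrdc, a tRNA modification enzyme, averaged 0.22 and -0.29, Zdhhc4, a palmitoyltransferase, 0.42 and -0.07, Vps54, a tethering factor of vesicles, 0.39 and -0.08, Ubxn6 0.75 and 0.29, Ercc2, a helicase of transcription factor TFIIH, 0.19 and -0.25, Plekhj1 0.26 and -0.19, Hsdl1 0.27 and -0.17, and Cstf1, a polyadenylation factor, -0.05 and -0.47. Of the 37 higher genes without overlap only 16 had a mean of at least 6 over the arrays.

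Several lists outside the cell cycle leaned one way. In none of them was a gene free of overlap, which held for only 0.258% (lower) and 0.203% (higher) of all genes. Over all genes 42.9% were lower in the deep group, against which the counts of these lists are to be read. Ribosome biogenesis genes were higher in the deep group in 36 of 37 cases with a median gap of 0.36, which was 0.05 when lymphomas were ranked by the ADR array and 0.14 after the change tied to fibroblast markers was removed. Their median gap was 0.21 without lymphoma 2949, 0.24 without 5560 and 0.63 without 1467. Their list means ran from -0.68 to 0.75 in the deep group and from -1.15 to 0.63 in the shallow group. Cholesterol synthesis genes, among them Hmgcs1 at -1.56 and -0.57, were lower in the deep group in 18 of 19 cases with a median gap of -0.54, and -0.12 when ranked by the ADR array. Unfolded protein response genes were higher in 21 of 24 cases with a median gap of 0.40, and NF-kB genes in 18 of 19 with 0.23, led by Traf1, a TNF receptor adaptor, at 1.49 and 0.36. The NF-kB gap was -0.07 among the lymphomas with DOX arrays, and 0.12 without lymphoma 3802, 0.13 without 1467 and 0.14 without 2581.

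B lineage transcription factors were higher in the deep group in 15 of 16 cases, with a median gap of 0.36 that was -0.32 when lymphomas were ranked by the ADR array, 0.21 without lymphoma 1570, 0.22 without 5560 and 0.63 without 1467. Among the lymphomas with DOX arrays that gap was only 0.016, and among those with sen arrays 1.195. Myb, a factor of immature B cells, had the largest positive gap of all genes, but the gap turned to -0.48 when ranked by the ADR array and was 1.32 without lymphoma 5560. The Myb gap was 0.34 among the lymphomas with DOX arrays and 4.03 among those with sen arrays. Its groups overlapped, with differences of -6.09 in shallow lymphoma 5560 and -4.27 in 403 but -0.02 in shallow lymphoma 3802 and 1.34 in deep lymphoma 1570. Those same 2 shallow lymphomas had the highest fibroblast marker means on the ADR arrays, 9.03 and 9.18, against 5.22 to 7.65 in the other 10. Myc averaged -0.46 in the deep group and -1.03 in the shallow group, with its lowest value, -2.47, in lymphoma 5560. With the change tied to fibroblast markers removed, the gap was 0.22 for B lineage transcription factors and 1.25 for Myb. In bulk RNA fewer lymphoma cells and less RNA per cell cannot be told apart, and the part of feeder RNA in these values was not tested.

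Fibroblast markers were measured for 30 genes, and their mean ran from 4.97 to 5.66 on untreated and from 5.48 to 7.65 on ADR arrays of the deep group, and from 4.77 to 5.32 and from 5.22 to 9.18 in the shallow group. Of these genes 0 were free of overlap, near the share over all genes. At least 2-fold lower in the deep group were 7, against 1.08% of all genes, and 0 were at least 2-fold higher. A smaller difference in the deep group was found for 27, with a median gap of -0.66. That gap turned to 0.42 when lymphomas were ranked by the ADR array and to 0.068 with 4 against 4 lymphomas. Among the lymphomas with DOX arrays it was 0.0041, and among those with sen arrays -1.194. It was -0.29 without lymphoma 5560, -0.30 without 403, -0.37 without 1570 and -0.38 without 2949, and -1.04 without 2581, -0.99 without 3802 and -1.22 without 1467. Macrophage markers, 29 genes, had a median gap of 0.14, which was -0.10 without lymphoma 2581, -0.0086 without 403 and 0.39 without 2949, with means from 6.05 to 8.61 on deep and from 6.74 to 8.81 on shallow ADR arrays. Their gap was -0.31 among the lymphomas with DOX arrays and 0.94 among those with sen arrays. With the change tied to the fibroblast mean removed, the median gap was -1.06 for spindle genes, -0.89 for kinetochore genes and -0.87 for G2/M entry genes. After that removal 29 genes were lower without overlap, against 47 before it, and 37 were higher both before and after. Interferon response genes had a median gap of 0.24 in their differences while their levels were lower in the deep group on both arms, by medians of -0.44 untreated and -0.24 after ADR. That gap was 0.017 without lymphoma 403, 0.068 without 3769 and 0.37 without 2949. It turned to -0.066 among the lymphomas with DOX arrays and was 0.716 among those with sen arrays. With 4 against 4 lymphomas it was 0.093, and 0.094 when ranked by the ADR array. Secretory phenotype genes had a median gap of -0.20, which was 0.04 after the removal of the fibroblast change, 0.23 when ranked by the ADR array and between -0.39 and -0.061 with 1 lymphoma left out, without 1467 and 5560 respectively. Il6, a cytokine of that phenotype, averaged 1.88 and 1.13, and Hmga2, a chromatin protein also expressed by fibroblasts, 2.91 and 3.38.

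The ADR arrays were compared between the same groups, and their Mki67 value is a term of the rule, so they are no independent readout. The lymphoma means over the 209 genes of the 8 lists overlapped on these arrays. On them 37 genes were lower in all deep lymphomas than in all shallow ones, 0.203% of those measured, and 42 were higher, 0.231%. Of the lower genes 24 were on the 8 lists and of the higher genes 0, which is near the lists' share of all genes. Kif11, Ube2c and Birc5 led the lower genes, with gaps of -1.76, -1.70 and -1.59. Of the higher genes 10 had a mean of at least 6.

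On the untreated arrays of the 2 groups, 165 of the 209 genes of the 8 lists were higher in the deep group. Their median gap was 0.14, and 0.02 without lymphoma 5560. Free of overlap were 19 genes lower in all deep lymphomas, 0.104%, and 23 higher ones, 0.126%. Of either 0 were on the 8 lists, which is near the lists' share of all genes. Among the lower ones were Ccl4, a chemokine of activated lymphoid and myeloid cells, at 5.09, 5.52 and 6.67 in the deep lymphomas and 7.28, 7.40 and 7.90 in the shallow ones, Wfdc21 at 4.51 to 5.89 and 6.62 to 10.34, Slfn2 at 7.14 to 8.55 and 8.68 to 9.17, and Il18 at 4.37 to 5.87 and 5.88 to 6.82. Wfdc21, Slfn2 and Il18 were chosen after their values were seen. Macrophage markers were lower in untreated deep than shallow arrays in 26 of 29 cases (median gap -0.54) and interferon response genes in 31 of 33 (-0.44), against a median of 0.0049 over all genes. The list means overlapped between the groups. For macrophage markers they ran from 4.95 to 7.23 in the deep and from 5.16 to 7.89 in the shallow lymphomas. For interferon response genes they ran from 6.17 to 6.61 and from 6.12 to 7.98, highest in shallow lymphomas 403 (7.98) and 5560 (7.43). The part of other cells in Ccl4, Wfdc21, Slfn2 and Il18 was not tested.

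A test of the untreated arrays was possible with the lymphomas ranked by Mki67 on the ADR array alone, since that value does not enter them. It asks whether untreated expression differs between lymphomas that end with low or high Mki67. With limma, 0 of 18193 genes passed an adjusted p of 0.05 (0% called), 1035 (5.69%) had an unadjusted p under 0.05, and the lowest adjusted p was 0.826. The 19 alternative settings also called 0 genes, with lowest adjusted p from 0.177 without lymphoma 2581 to 0.999 without 2949. The count at an unadjusted p under 0.05 was 1688 (9.28%) without 2581, 655 (3.6%) without 2949 and 1941 (10.7%) with the slope on the Mki67 level of the ADR array.

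The genes with the lowest p in each direction are given as values. Itga6, the laminin-binding integrin alpha 6, lay at 9.32, 9.57 and 9.88 in the 6 lymphomas with low Mki67 after ADR and at 7.50, 8.54 and 8.89 in the 6 with high Mki67, a difference of 1.21 (SE 0.23, limma, adjusted p = 0.826). Ehd3, an endosome recycling protein, lay at 5.97, 6.53 and 7.36 against 4.47, 5.33 and 5.81. Nr3c1, the glucocorticoid receptor, lay at 8.27, 8.46 and 8.58 against 7.64, 8.04 and 8.14. In the other direction Lsm1, an mRNA decay factor, lay at 7.59, 7.81 and 8.09 against 8.14, 8.28 and 8.56, Cables2 at 6.52, 6.84 and 7.18 against 7.13, 7.50 and 7.70, and Hpdl near the floor at 3.05, 3.55 and 3.80 against 3.87, 4.13 and 4.34. Of these 6 genes Cables2 overlapped between the groups, the other five did not, and all had an adjusted p of 0.826. Untreated Kif11, Top2a and Cdkn1a differed by -0.17, -0.07 and 0.55, with adjusted p of 0.854, 0.949 and 0.846 in the same limma fit.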

How the data were processed

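Values are log2 expression as deposited by the authors, who used RMA and Partek per the submitters' processing notes. Their versions are not stated in the labels. RMA compresses weak signals toward a floor. Of 45101 probe sets, 64 control probe sets were left out. Each of 18193 genes was read from 1 probe set naming that gene alone, the brightest on average across the 24 arrays, and 932 probe sets with several symbols and 9160 with none were not used. Some list genes had no single-gene probe set: 847 of 907 list entries were measured.

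The pairing of arrays comes from the lymphoma numbers in the titles. Untreated and ADR arrays of a lymphoma deviated together from their group means (correlation 0.267 to 0.595 over genes, above 0.1 in all 12). The deep minus shallow gap is the difference between the group means of ADR minus untreated. Groups do not overlap where every deep value lies on the same side of every shallow one. A gap of 1 on the log2 scale counts as 2-fold. A list median is over its measured genes.

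The untreated arrays were tested with limma 3.58.1 in R 4.3.3 (lmFit, eBayes, Benjamini-Hochberg over 18193 genes, threshold 0.05), and the script was tested on data made with known answers. Fisher's exact test used scipy 1.17.1 in Python 3.11.15 with pandas 2.3.3 and numpy 2.4.6, and figures used matplotlib 3.10.9. The arrays per group limit the precision. The limma p-values set group differences against the spread between lymphomas, which includes differences between cultures. Fisher's exact test used only the counts of array-name words.

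The groups, the 37 lists and the tests were chosen with earlier results of these data known, so they support nothing independently. Named genes were the 10 largest gaps each way among genes without overlap and a mean of at least 6, the 3 largest absolute gaps at that mean in each list, the 3 lowest p each way for the untreated test and a set of regulators; any other gene was chosen after its values were seen. Alternatives covered array centring, quantile normalization, the choice of probe set, a mean of at least 6, 4 against 4 lymphomas, ranking by the ADR array, each array-name word alone or as a covariate, removal of the fibroblast marker change, and each lymphoma left out. Leaving lymphomas out of the 209-gene medians was added after seeing the data. Promoter sequences and gene symbols are RefSeq's (GRCm38.p6); the probe annotation is GEO's platform table.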

Additional observations from a re-analysis of the deposited data

Results flagged for a closer look

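Of 160 groups of 6 lymphomas, 15 (9.38%) held 1 lymphoma set apart from the other 5 by most of the group's range (Dixon's 95% criterion). The groups reuse the same 12 lymphomas, and many of their genes were named by their gap between deep and shallow lymphomas. They are not independent, so the share cannot be set against a chance rate. Lymphoma 2949, which has the largest Mki67 drop, was that lymphoma for Kif20a (-4.90), Ncapg (-4.91), Spag5 (-4.40), Cenpe (-4.30), Ttk (-4.90), Yrdc (1.01) and Ercc2 (0.62), and for the mean of the oxidative phosphorylation genes (-0.032). Lymphoma 6054 stood apart in the deep group for the mean of G1/S and E2F target genes (-0.81) and for Rbl1 (-0.88), and lymphoma 2581 for the mean of plasma cell genes (1.12). In the shallow group it was lymphoma 3802 for condensin and cohesin genes (-0.42), 1467 for CDK inhibitors (-0.68), 403 for interferon response genes (-0.43) and 3594 for Plekhj1 (-0.27). All values are ADR minus untreated.

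Plagl2 and Ercc2 had differences above 0 in all 6 deep lymphomas and below 0 in all 6 shallow ones, with gaps of 0.75 and 0.44, and this difference was not tested.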

How the results depend on the processing

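The 84 genes without overlap and the 241 genes 2-fold apart moved with the choice of lymphomas more than with the scaling of arrays. Genes without overlap numbered 604 with 4 against 4 lymphomas, 52 when ranked by the ADR array, 1579 with DOX arrays alone and 3453 with sen arrays alone, since smaller groups overlap less by construction, and 110 to 207 with 1 lymphoma left out. Genes 2-fold apart numbered 152 at a mean of at least 6, 124 when ranked by the ADR array, 1003 with sen arrays alone, 128 with the fibroblast marker change removed and 156 to 487 with 1 lymphoma left out. Ranked by the ADR array, the median gap was -0.35 for MCM licensing, -0.57 for G2/M entry and -0.60 for kinetochore genes, and with sen arrays alone -0.69 for kinetochore genes and 0.47 for p53 targets. The cause was not tested. The share of lower genes among those without overlap was 56.0%, and 40.4% when ranked by the ADR array. Of 740 list medians under alternatives, 716 stayed within 1 SD and 75 changed sign. Of 2740 values of single genes, 2673 stayed within 1 SD and 100 changed sign. The spindle, kinetochore, G2/M entry and replication fork medians kept their sign in all 20 settings. Some lists outside the cell cycle did so too. Their medians ran from 0.28 to 0.55 for unfolded protein response, -0.94 to -0.12 for cholesterol synthesis and 0.047 to 0.63 for ribosome biogenesis genes. The mean of all Mki67 probe sets gave no other value, as there is 1. Every ADR minus untreated difference is paired by lymphoma number, so no further paired fit was made. Signal near the floor limits genes such as Kif11, which reached 3.49.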

Other observations

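On untreated arrays Sox4, a transcription factor of immature B cells whose untreated level was singled out after its values were seen, lay at 10.71, 11.01 and 11.50 (lowest, median and highest) in the 6 lymphomas with low Mki67 after ADR and at 4.73, 8.79 and 10.54 in the 6 with high Mki67, a difference of 2.69 (SE 0.73, limma, adjusted p = 0.826, unadjusted p = 0.00293). All 6 lymphomas of the first set lay above all 6 of the second. Its ADR minus untreated difference averaged -0.38 in the deep and 1.19 in the shallow lymphomas, with 3.22 in lymphoma 403 and 2.88 in 1467. Il33, an alarmin cytokine, and Tsc22d1, a leucine zipper regulator, had the largest gaps of all genes, in either direction. Il33 averaged 0.0045 in the deep and 2.53 in the shallow lymphomas and Tsc22d1 0.82 and 3.21. Both overlapped between the groups and were chosen after their values were seen. The part of feeder RNA in them was not tested.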
